A study of Mus musculus with 15 samples.

Results

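The transcripts described here belong to 37 genes of the cytosolic and mitochondrial chaperone machinery, chosen by symbol from the 54232 genes of a striatal read count table. The members were HSP70 and HSP110 proteins (Hspa1a, Hspa1b, Hspa2, Hspa8, Hspa12a, Hspa4, Hspa4l, Hsph1), HSP90 proteins with their cochaperones (Hsp90aa1, Hsp90ab1, Ahsa1, Chordc1, Stip1, St13) and J-domain proteins (Dnaja1, Dnaja2, Dnajb1, Dnajb2, Dnajb4, Dnajb5, Dnajb6, Dnajc5). They also included small heat shock proteins (Hspb1, Hspb8, Cryab), BAG and ubiquitin ligase partners (Bag1, Bag3, Stub1), subunits of the TRiC chaperonin (Cct2, Cct3, Cct4, Cct5, Tcp1), mitochondrial chaperones (Hspa9, Hspd1, Hspe1) and the transcription factor Hsf1. All 37 had enough reads to be tested, among 18278 genes tested in all. Striatal RNA of 15 mice, each 6 months old and each giving 1 library, was sequenced in a study of knock-in mice for Huntington's disease and repeat-associated non-AUG translation. The labels give 3 genotypes: 7 mice were WT, 4 were E1 and 4 were KI-96. The alleles that E1 and KI-96 stand for, their strain and their sex are not stated in the labels.

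Chaperones bind unfolded stretches of other proteins and keep them from aggregating. HSP70 works in cycles set by J-domain proteins, which deliver clients and trigger ATP hydrolysis, and by exchange factors such as HSP110 and BAG proteins, which release ADP. HSP90 takes over late folding steps, TRiC folds actin and tubulin in a closed chamber, and Hspd1 with its lid Hspe1 does the like in the mitochondrial matrix. Hsf1 switches on the heat-inducible members by binding heat shock elements, inverted repeats of the unit GAA in their promoters. In Huntington's disease the expanded huntingtin protein forms aggregates, and neurons of the striatum are lost early. HSP70 and J-domain proteins, Dnajb6 above all, are known to restrain polyglutamine aggregation in cells.

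Promoters are shown for the twin genes Hspa1a and Hspa1b and for the gene pair Hspe1 and Hspd1, since each pair shares promoter sequence and is compared for variation between mice. Sequences are from RefSeq on GRCm38.p6, written 5′ to 3′ on the strand named. Capitals mark matches to a pair of heat shock units, TTCNNGAA or GAANNTTC, where N is any base.
Hspa1a (chr17:34972157-34972406, minus strand): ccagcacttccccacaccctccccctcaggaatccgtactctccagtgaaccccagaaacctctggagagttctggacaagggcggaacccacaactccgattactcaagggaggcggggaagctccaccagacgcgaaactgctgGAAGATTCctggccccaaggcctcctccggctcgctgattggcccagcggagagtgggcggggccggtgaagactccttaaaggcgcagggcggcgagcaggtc
Hspa1b (chr17:34959239-34959488, minus strand): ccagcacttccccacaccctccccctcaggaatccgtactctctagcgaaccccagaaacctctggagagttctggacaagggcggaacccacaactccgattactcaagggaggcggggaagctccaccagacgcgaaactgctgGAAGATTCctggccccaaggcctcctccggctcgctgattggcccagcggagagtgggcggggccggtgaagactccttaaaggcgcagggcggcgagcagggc
Hspe1 and Hspd1 (chr1:55088053-55088082, plus strand): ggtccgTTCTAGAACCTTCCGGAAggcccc
The Hspa1a and Hspa1b windows, 250 bases before each start site, were the same at 247 of 250 positions (98.8%), and each held 1 match starting 104 bases before the start. The 30 bases shown lie between the starts of Hspe1 and of the longest Hspd1 transcript, which runs on the opposite strand. Their run of capitals held 3 overlapping pairs and 2 matches to 3 units in a row. Its first base was 73 bases before the Hspe1 start and, on the opposite strand, 35 bases upstream of that Hspd1 start. A promoter entry was found for 28 of the 37 members. Of these, 12 (42.9%) held a pair of units in the 250 bases before the start, against 3932 of 27025 genes (14.5%). Matches to 3 units in a row were found in 3 of 28 (10.7%: Dnajb6, Hspd1 and Hspe1) against 139 of 27025 genes (0.514%). These counts take each gene separately, although Hspa1a and Hspa1b have nearly the same window and Hspd1 and Hspe1 share promoter sequence. Both pairs are among the 12, so the member shares count the same or nearly the same sequence more than once. Each pair motif is its own reverse complement, and the longer motif, a pair followed by any 2 bases and the next alternating unit, was searched from either starting unit, so both strands were covered. Every longer match also holds pairs. A match describes letters in a window and is no evidence that Hsf1 binds there.

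Library totals ran from 14678565 to 26388542 counts. Markers of spiny projection neurons, the main striatal cell type, were present in every library, with a summed level between 8060 and 13786 CPM (counts scaled to library size). Cortical excitatory neuron markers were high in 3 libraries, WT replicate 3, E1 replicate 2 and E1 replicate 3 (mean log2 CPM of 6.21, 6.36 and 5.70), against 2.47 to 3.88 in the other 12. Reads of 4 Y-linked genes were present in WT replicates 2 to 7 (2680 to 5755 counts) and nearly absent from WT replicate 1 and all E1 and KI-96 libraries (0 to 2 counts). Outside WT replicate 1, genotype against WT and the presence of Y-linked reads therefore cannot be told apart. E1 and KI-96 were both without them. Markers of thalamic and pallidal neighbour tissue summed to 100 to 189 CPM in WT, 87.1 to 136 CPM in E1 and 112 to 371 CPM in KI-96. The highest were KI-96 replicates 4 and 3, at 371 and 224 CPM. The part of neighbour tissue in the member values was not tested. KI-96 replicate 3 had the lowest share of mitochondrial reads, 3.62% against 4.57% to 6.37%.

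Levels of the members were compared in CPM per kilobase of annotated exon, a scale on which genes with long annotated untranslated exons read low. In WT mice the highest were Hsp90ab1 (467 ± 48.3, SD, n = 7), the constitutive HSP90, Hspa8 (262 ± 48.3), the constitutive HSP70, and Hsp90aa1 (209 ± 19.0), the inducible HSP90. These 3 held the first 3 ranks in E1 and in KI-96 too. Cryab (85.2), Stip1 (73.6) and Bag1 (69.2) followed. The lowest were Hspa1a (2.46 ± 2.53), the inducible HSP70, Bag3 (4.89 ± 1.17), the exchange factor of chaperone-assisted autophagy, and Hspb1 (5.19 ± 2.39), with Hspa1b (5.85 ± 6.05) next. Constitutive HSP70 message exceeded that of the inducible pair in all 3 genotypes.

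**Figure D1:**
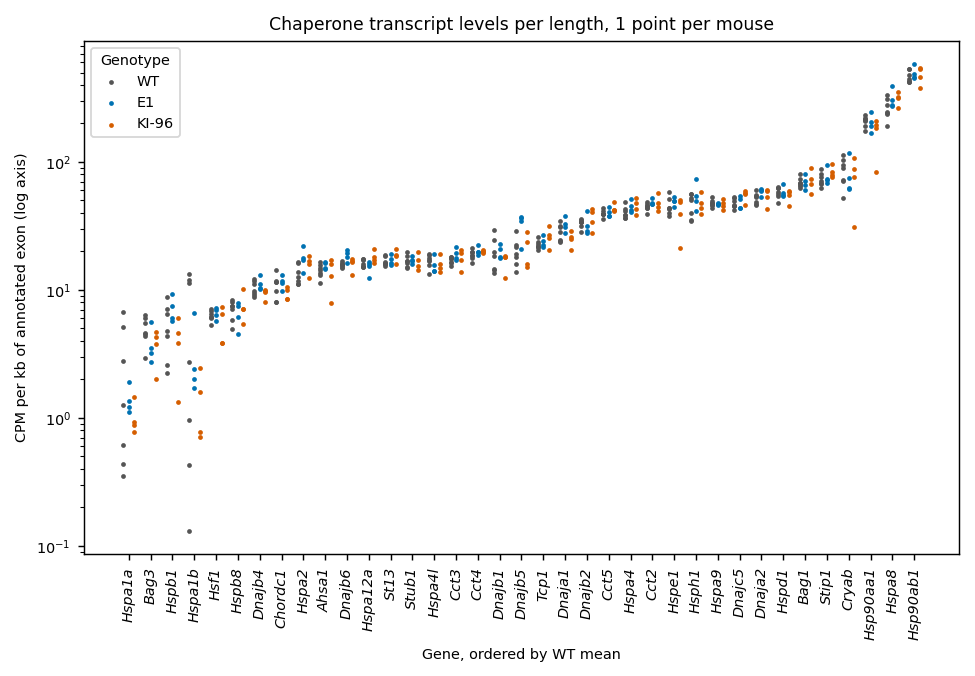
Transcript level of the 37 chaperone genes in CPM per kilobase of annotated exon on a log axis, 1 point per mouse, coloured by genotype and ordered by the WT mean. Hsp90ab1, Hspa8 and Hsp90aa1 stand highest, and the WT points of Hspa1a and Hspa1b spread the most.

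No member passed the threshold in any comparison with edgeR's quasi-likelihood test and Benjamini-Hochberg adjustment (adjusted p under 0.05), and neither DESeq2 nor limma-voom called one. For E1 against WT the background was 1 gene of 18278 (0.00547%), and for KI-96 against WT and KI-96 against E1 it was 0%. At an unadjusted p under 0.05, E1 against WT held 3 of 37 members, all higher in E1, beside 8.75% of all genes. KI-96 against WT held 0 beside 10.5%. KI-96 against E1 held 5, of which 1 was higher and 4 lower in KI-96, beside 14.3%. The smallest adjusted p was 0.448, 0.508 and 0.27 in that order.

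The direction and size of the differences were small for most members. Fold changes were positive for 27 of 37 members in E1 against WT (49.7% of all genes), with a median log2 value of 0.07 against 0 for all genes. In KI-96 against WT 20 were positive (47.9% of all genes) with a median of 0.02 against -0.01. In KI-96 against E1 12 were positive (49.4% of all genes) with a median of -0.06 against 0. The 27 positive values became 18 and the median -0.01 once the 3 libraries with high cortical markers were left out. In that fit 0 members had an unadjusted p under 0.05 in E1 against WT, down from 3. The median was -0.03 with Y-linked reads as a covariate. The part of cortical neurons and of Y-linked status in the E1 values beyond these fits was not tested.

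Precision allowed limits to be stated. The 95% interval of the log2 fold change lay within 1 of 0, that is, less than a doubling or halving, for 33 of 37 members in E1 against WT (79.1% of all genes), 34 in KI-96 against WT (79.0%) and 33 in KI-96 against E1 (72.5%). The members whose intervals went beyond were Hspa1a, Hspa1b and Hspb1 in all 3 comparisons, and Dnajb5 in both comparisons with E1.

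**Figure D2:**
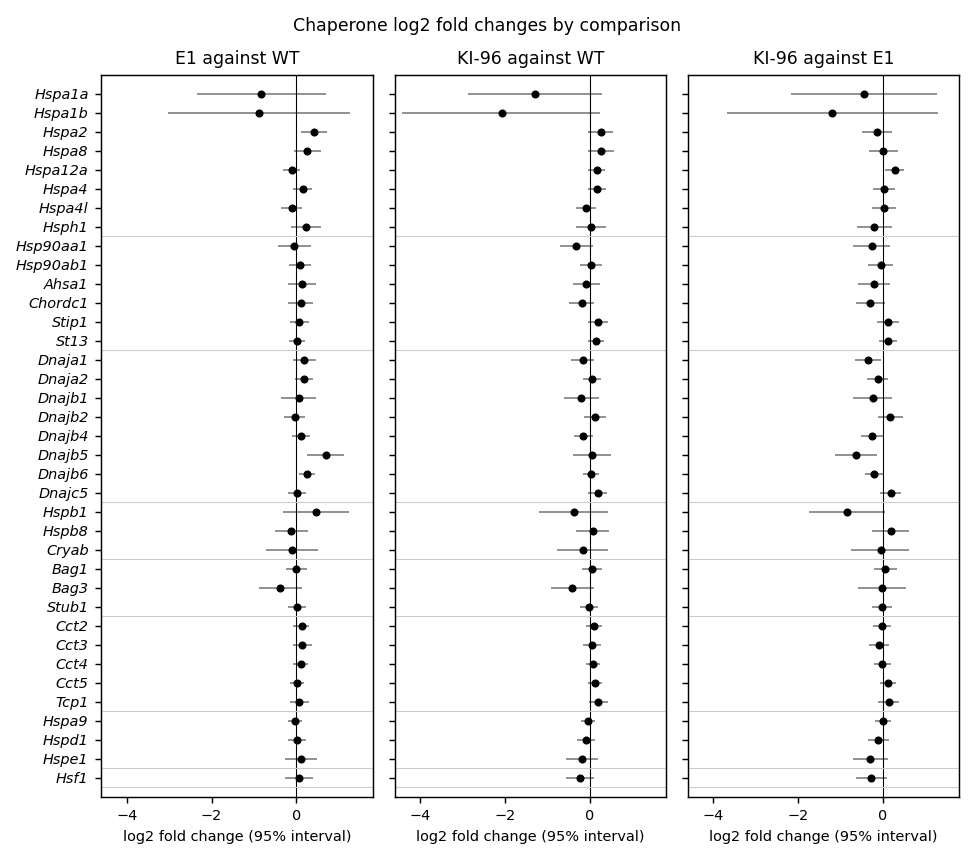
Log2 fold change (point) and 95% interval (line) of each member in the 3 comparisons, ordered by role. Most intervals are narrow and cross 0, those of Hspa1a and Hspa1b are the widest, and Dnajb5 lies at 0.69 in E1 against WT and at -0.64 in KI-96 against E1.

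Hspa1a and Hspa1b encode nearly the same inducible HSP70 protein and lie 9951 bases apart on the minus strand of chromosome 17 (chr17:34969190-34972156 and chr17:34956436-34959238, GRCm38). Hspa1b (ENSMUSG00000090877.3) ranged in WT from 0.365 through a median of 7.7 to 37.4 CPM. It stood at 5.59, 6.8, 18.5 and 4.78 CPM in E1 and at 2.18, 6.85, 1.97 and 4.5 CPM in KI-96. The WT mice alone spanned 103-fold, with replicates 2, 5 and 6 at 33.6, 37.4 and 31.8 CPM and replicates 4 and 7 below every E1 and KI-96 mouse, so the groups overlapped. Hspa1a (ENSMUSG00000091971.3) had the same 3 WT mice at its top and the same 3 at its bottom. Its WT values ran from 1.04 through 3.71 to 19.8 CPM, beside 3.59, 3.31, 5.64 and 3.99 CPM in E1 and 2.62, 2.76, 2.29 and 4.29 CPM in KI-96. Of all 18278 genes tested, Hspa1b ranked 15th and Hspa1a 61st for the SD of log2 CPM among WT mice (2.54 and 1.68).

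The genotype differences of the pair sat inside that spread. Hspa1b differed from WT by -0.89 (SE 0.99, adjusted p = 0.803) in E1 and by -2.08 (SE 1.08, adjusted p = 0.52) in KI-96 on the log2 scale. Its 95% interval in KI-96 ran from -4.42 to 0.25. Hspa1a differed by -0.83 (SE 0.71, adjusted p = 0.736) in E1 and by -1.29 (SE 0.73, adjusted p = 0.557) in KI-96. With Y-linked reads as a covariate, which leans on the single WT mouse without them, the E1 values turned to 0.21 for Hspa1b and 0.16 for Hspa1a, and the KI-96 values were -0.99 and -0.30. Between KI-96 and E1 the differences were -1.20 (SE 1.15) for Hspa1b and -0.45 (SE 0.81) for Hspa1a, neither past the threshold. Reads of the twins may be split between them in counting: 58.8% of the 50-base windows of Hspa1a also occur in Hspa1b.

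Mouse-to-mouse variation within genotypes was compared for Hspa1a with Hspa1b and for Hspa1b with Dnajb1. After the group means of log2 CPM were subtracted, Hspa1a and Hspa1b correlated over 15 libraries with Pearson's r of 0.92 (adjusted permutation p = 0.00522) and Spearman's rho of 0.89 (adjusted p = 0.00462). The value stayed at 0.90 without WT replicates 5 and 6. The twins share sequence, and the part of shared reads in this value was not tested. Hspa1b and Dnajb1 correlated with r of 0.84 (adjusted permutation p = 0.00522) and rho of 0.86 (adjusted p = 0.00168), and with r of 0.82 without WT replicates 4 and 5. Dnajb1, the J-domain partner induced with HSP70, ran in WT from 43.2 through 58.9 to 94.5 CPM. It stood at 57.5, 66.9, 73.6 and 56.6 CPM in E1 and at 59.1, 58.1, 39.6 and 58.4 CPM in KI-96. Its log2 difference was 0.05 (SE 0.19) in E1 against WT, -0.20 (SE 0.19) in KI-96 against WT and -0.24 (SE 0.22) in KI-96 against E1. The 2 highest Dnajb1 values were WT replicates 5 and 6, which were also the highest for Hspa1a.

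**Figure D3:**
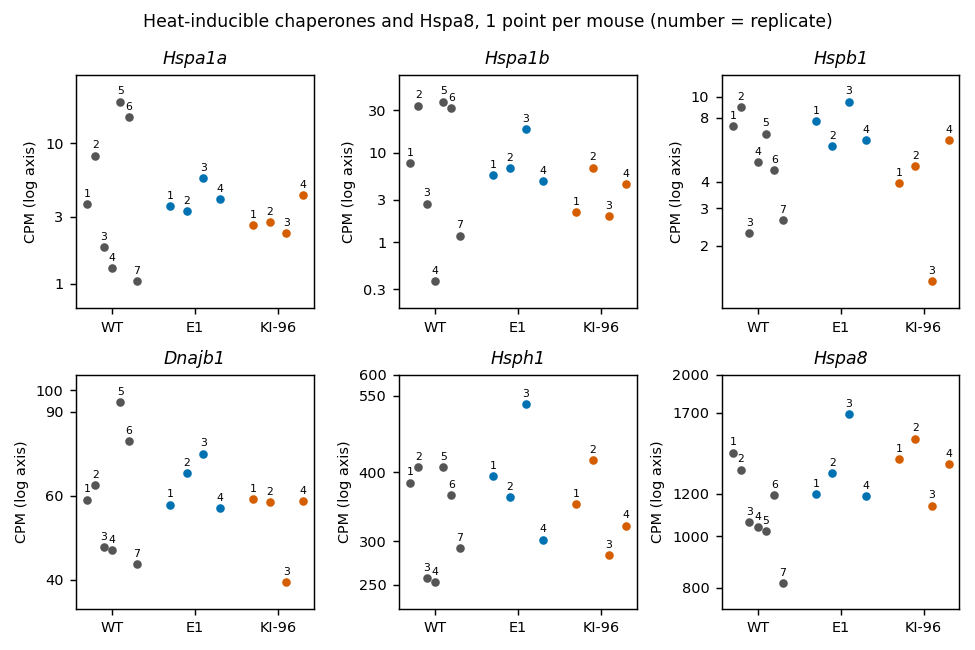
CPM on a log axis of 5 heat-inducible members and Hspa8 in each mouse, by genotype, with replicate numbers. WT replicates 2, 5 and 6 are high for Hspa1a and Hspa1b, and KI-96 replicate 3 is the lowest point for Hspb1 and Dnajb1.

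The constitutive HSP70 Hspa8 was somewhat higher in both E1 and KI-96 than in WT without passing the test. It ran in WT from 816 through 1061 to 1432 CPM, and stood at 1198, 1309, 1692 and 1187 CPM in E1 and 1394, 1521, 1140 and 1361 CPM in KI-96. All 8 mice of both genotypes lay above the WT median, and 6 of them lay within the WT range. The log2 difference was 0.26 (SE 0.15, adjusted p = 0.62) in E1 and 0.26 (SE 0.15, adjusted p = 0.538) in KI-96. The E1 value was 0.13 without E1 replicate 3 and 0.06 without the 3 libraries of high cortical marker level. Both comparisons share their 7 WT mice, and both turned negative, -0.09 and -0.08, with Y-linked reads as a covariate. Hspa8 did not separate KI-96 from E1 (0.01, SE 0.17).

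Hsph1, the HSP110 exchange factor, overlapped between genotypes and varied with Hspa8 within them. Its WT values ran from 253 through 364 to 409 CPM, beside 393, 360, 531 and 302 CPM in E1 and 350, 421, 283 and 320 CPM in KI-96. Its log2 difference from WT was 0.23 (SE 0.17) for E1 and 0.02 (SE 0.17) for KI-96. With group means subtracted it correlated with Hspa8 at r of 0.70 (adjusted permutation p = 0.0127) and rho of 0.70 (adjusted p = 0.00952), and at 0.74 without WT replicates 1 and 7.

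Hspa2, an HSP70 best known from male germ cells and also expressed in brain, was 1.33-fold the WT level in E1 (log2 0.41, SE 0.14, adjusted p = 0.484). Its WT values ran from 29.3 through 33.4 to 43.7 CPM, against 45.5, 35.9, 58.5 and 46.7 CPM in E1 and 44.8, 48.7, 32.6 and 42.0 CPM in KI-96. WT replicate 1, the WT mouse without Y-linked reads, stood at 43 CPM, near the top of WT. With Y-linked reads as a covariate the E1 value was 0.12 and the KI-96 value -0.03. Hspa12a, a distant HSP70 relative expressed in neurons, was higher in KI-96 than in E1 by 0.27 (SE 0.11, adjusted p = 0.285). E1 lay between 113 and 152 CPM and KI-96 between 150 and 192 CPM, with the top value in replicate 3, and the difference was 0.19 without that mouse. E1 against WT was -0.11 (SE 0.10, adjusted p = 0.742). Hspa4 and Hspa4l, the other HSP110 proteins, lay within 0.17 of 0 in all 3 comparisons.

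Among HSP90 and its cochaperones, the largest difference from WT was in Hsp90aa1, and 1 mouse carried most of it. Hsp90aa1 ran in WT from 690 through 842 to 909 CPM. It stood at 661, 753, 962 and 803 CPM in E1 and at 819, 763, 329 and 726 CPM in KI-96. Apart from KI-96 replicate 3, at 329 CPM, the KI-96 mice lay within the WT range. KI-96 against WT was -0.32 (SE 0.18, adjusted p = 0.558) with that mouse and -0.10 without it. Ahsa1, which activates the HSP90 ATPase, had the same low point: 34.3 CPM in KI-96 replicate 3 against 49.3 to 74.7 CPM in the other 14 mice. Hsp90ab1 differed from WT by 0.09 (SE 0.12) for E1 and 0.04 (SE 0.12) for KI-96. Stip1, which links HSP70 to HSP90, was at 0.19 (SE 0.11, adjusted p = 0.55) in KI-96, St13, an HSP70-interacting protein, at 0.14 and Chordc1, an HSP90 partner, at -0.19 (SE 0.14). The role medians were 0.08 in E1 against WT and -0.02 in KI-96 against WT.

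J-domain proteins, 8 of the 37 members, held 2 of the 3 with an unadjusted p under 0.05 in E1 against WT. They held 4 of the 5 in KI-96 against E1. The shares over all genes were 8.75% and 14.3%. Without KI-96 replicate 3 these 4 had an unadjusted p over 0.05 against E1. Their values were then -0.51 for Dnajb5, -0.27 for Dnaja1, -0.19 for Dnajb4 and -0.14 for Dnajb6. Dnajb5 (chr4:42949814-42959425 on the plus strand), a class B J-domain protein, gave the smallest p of any member. It ran in WT from 81.8 through 113 to 170 CPM. In E1 it stood at 220, 206, 216 and 125 CPM, and in KI-96 at 94.9, 168, 89.1 and 140 CPM. E1 replicates 1, 2 and 3 lay above every WT and KI-96 mouse, while E1 replicate 4 lay among them. The log2 difference from WT was 0.69 in E1 (SE 0.21, 95% interval 0.26 to 1.13, adjusted p = 0.448). Leaving out E1 replicate 4 gave 0.85 (adjusted p = 0.0477), and of the settings tried this was the single one in which any member passed. KI-96 against E1 was -0.64 (SE 0.24, adjusted p = 0.27), and KI-96 against WT was 0.05 (SE 0.21).

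Immediate early genes, which neuronal activity switches on within minutes, are given beside Dnajb5. Their 18 listed members had a median log2 difference of 0.73 in E1 against WT, 18 of 18 positive, with 1 past the threshold. At an unadjusted p under 0.05, 14 were higher, beside 8.75% of all genes in either direction. The median was -0.28 in KI-96 against WT and -0.95 in KI-96 against E1, with 0 past the threshold by edgeR. There 2 and 17 were lower at an unadjusted p under 0.05, beside 10.5% and 14.3% of all genes in either direction. Their summed level was 1385 to 2002 CPM in E1, 610 to 1443 CPM in WT and 639 to 1149 CPM in KI-96. Their part in the Dnajb5 value was not tested. The Dnajb5 value was 0.52 without the 3 libraries of high cortical marker level and 0.57 with Y-linked reads as a covariate.

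Dnajb6, a strong suppressor of polyglutamine aggregation, was steady in WT, from 89.2 through 95 to 102 CPM, and stood at 109, 124, 118 and 99.2 CPM in E1. Its WT SD of log2 CPM, 0.07, was the smallest of the 37. E1 replicates 1, 2 and 3 lay above all WT mice. The log2 difference was 0.24 (SE 0.09, adjusted p = 0.484), and 0.14 once the 3 libraries rich in cortical markers were left out. KI-96 was at 105, 102, 79.5 and 99.3 CPM, with 0.02 (SE 0.09) against WT and -0.22 (SE 0.10, adjusted p = 0.323) against E1.

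Dnajb4 was the single member whose groups did not overlap in any comparison: KI-96 stood at 87.4, 84.7, 70.5 and 85.2 CPM, below 114, 88.7, 98.2 and 90.5 CPM in E1. It was picked out after its values were seen. Over all genes 4.79% had KI-96 and E1 groups that did not overlap, against 1.69% for E1 and WT and 1.29% for KI-96 and WT, where 0 members did. The difference was -0.26 (SE 0.12, adjusted p = 0.345), and WT, from 77.5 to 107 CPM, overlapped both groups. Dnaja1, a general HSP70 partner, was lower in KI-96 than in E1 by a log2 value of -0.36 (SE 0.14, adjusted p = 0.279), with 217, 247, 177 and 225 CPM against 268, 280, 326 and 239 CPM. Dnajc5, the cysteine string protein of synaptic vesicles, was at 0.19 (SE 0.10, adjusted p = 0.525) in KI-96 against WT and 0.18 against E1. Dnaja2 and Dnajb2 differed by at most 0.17 in size in every comparison. The role median was 0.14 in E1 against WT, 0.04 in KI-96 against WT and -0.23 in KI-96 against E1.

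The small heat shock proteins varied with single mice. Hspb1 had 25 to 179 reads per library and ran in WT from 2.29 through 4.95 to 8.99 CPM. It stood at 7.69, 5.9, 9.52 and 6.25 CPM in E1 and at 3.93, 4.74, 1.36 and 6.25 CPM in KI-96. The groups overlapped, and KI-96 replicate 3 was the lowest of all 15. The log2 difference was 0.46 (SE 0.36) in E1 against WT, -0.38 (SE 0.38) in KI-96 against WT and -0.84 (SE 0.42, adjusted p = 0.376) in KI-96 against E1. The second of these was -0.09 without KI-96 replicate 3. Of its 50-base windows, 48.8% also occur in 1 other annotated gene, Hsp25-ps1, so its reads may be split. The shares for Hsp90aa1, Hspd1 and Hspa8 were 47.5%, 39.7% and 38.6%, so their reads may be split too. Hspb8, the partner of Bag3, lay within 0.18 of 0 throughout.

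Cryab, which encodes alpha-B crystallin and is strong in oligodendrocytes, ran in WT from 77.6 through 133 to 168 CPM. It stood at 111, 91.8, 90.3 and 175 CPM in E1 and at 112, 131, 45.8 and 158 CPM in KI-96. KI-96 against WT went from -0.17 (SE 0.29) to 0.09 on leaving out replicate 3. Mature oligodendrocyte markers summed to 6071 to 9244 CPM in WT, 4158 to 9635 CPM in E1 and 5859 to 8025 CPM in KI-96, and their part in the Cryab values was not tested. In tissue RNA, fewer cells of a type and less RNA per cell cannot be told apart.

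Bag3 had lower means in E1 and KI-96 than in WT without passing the test: 12.5 ± 3.01 CPM in WT (SD, n = 7), 9.63 ± 3.24 in E1 (n = 4) and 9.46 ± 2.99 in KI-96 (n = 4). The log2 differences from WT were -0.38 (SE 0.24, adjusted p = 0.651) in E1 and -0.41 (SE 0.24, adjusted p = 0.566) in KI-96, the latter -0.20 without KI-96 replicate 3. The E1 value was -0.64 without E1 replicate 4. With Y-linked reads as a covariate the E1 and KI-96 values were -0.20 and -0.22. Bag1, an HSP70 exchange factor, and Stub1, the ubiquitin ligase CHIP that tags HSP70 clients, lay within 0.06 of 0 in every comparison.

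The 5 TRiC subunits had positive values against the same 7 WT mice in both genotypes, and none passed. Their log2 fold changes lay between 0.01 and 0.14 for E1 and between 0.05 and 0.20 for KI-96, with role medians of 0.10 and 0.09. The common direction did not hold in every fit. For E1, Cct5 was at -0.04 and Tcp1 at -0.01 without the 3 libraries of high cortical marker level, and Cct4, Cct5 and Tcp1 were at -0.07, -0.04 and -0.12 with Y-linked reads as a covariate. For KI-96 that covariate gave -0.03 for Cct2 and -0.08 for Cct4. Tcp1 had the smallest unadjusted p of any member in KI-96 against WT (0.20, SE 0.11, adjusted p = 0.508). Its WT values ran from 103 through 110 to 130 CPM, against 122, 113, 135 and 108 CPM in E1 and 159, 127, 134 and 103 CPM in KI-96. KI-96 replicate 1 was highest for Tcp1 and replicate 4 lay at the low end of WT. Cct5, at 0.13 (SE 0.08) in KI-96 against WT and 0.11 against E1, was nearly as steady in WT as Dnajb6 (SD of log2 CPM 0.08). Cct2 and Tcp1 correlated within genotypes at r of 0.71 (adjusted permutation p = 0.0315) and rho of 0.70 (adjusted p = 0.00952), and at 0.79 without KI-96 replicates 1 and 3.

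The 3 mitochondrial members gave small differences in every comparison, the largest being -0.30 (SE 0.20) for Hspe1 in KI-96 against E1, which was -0.09 without KI-96 replicate 3. Hspa9, mitochondrial HSP70, stood at 206 ± 13.5 CPM in WT (SD, n = 7), 201 ± 2.36 in E1 (n = 4) and 201 ± 15.8 in KI-96 (n = 4), with log2 differences from WT of -0.03 (SE 0.08) in both. Hspd1 differed from WT by 0.02 (SE 0.10) for E1 and -0.09 (SE 0.10) for KI-96. Hspe1, its lid, differed by 0.11 (SE 0.17) and -0.18 (SE 0.18), the latter 0.03 without KI-96 replicate 3, which had 31.6 CPM against 55.4 to 86.3 CPM in the others. Hspd1 and Hspe1, which share a promoter and overlap on opposite strands, correlated within genotypes at r of 0.70 (adjusted permutation p = 0.0126) and rho of 0.71 (adjusted p = 0.00916). The relation rested partly on 2 libraries: r was 0.51 without KI-96 replicate 3 and WT replicate 3, and 0.52 (adjusted p = 0.0749) without the former alone.

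Hsf1, the master regulator of the heat shock response, differed from WT by 0.06 (SE 0.15) for E1 and -0.22 (SE 0.16, adjusted p = 0.629) for KI-96, the latter -0.09 without KI-96 replicate 3. Its KI-96 values were split, 27.3 and 27.4 CPM in replicates 1 and 3 against 45.8 and 52.4 CPM in replicates 2 and 4, while WT ran from 37.6 to 50.5 CPM. Transcript level says nothing of its activity, which is set after translation.

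KI-96 replicate 3 was low for many members at once. It lay below the mean of the other KI-96 mice for 31 of 37 members (83.8%), beside 50.6% of all genes, with a median log2 difference of -0.37 against -0.01. It was the lowest of all 15 libraries for 17 members (45.9%), beside 22.1% of all genes, among them Hsp90aa1, Hsp90ab1, Ahsa1, Dnaja1, Hspb1, Cryab, Hspa9, Hspd1 and Hspe1. It was the highest for Hspa12a, Hspa4l and St13 (8.11%), beside 19.6% of all genes, so over all genes it was often extreme in both directions. Its summed chaperone level, 6210 CPM, was the lowest of the 15, and E1 replicate 3, at 9113 CPM, was the highest. E1 replicate 3 gave the top value for 10 members (27.0%), among them Hspa8, Hsph1 and Hsp90ab1, beside 7.02% of all genes. It was 1 of the 3 libraries with high cortical markers, and the other 2 did not share this pattern. WT replicate 3 gave the top value for 0 members and the lowest for 8 (21.6%), beside 6.78% of all genes. E1 replicate 2 gave the top value for 2 members (5.41%), beside 7.6% of all genes. The part of the low mitochondrial share and of the cortical markers in these patterns was not tested.

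**Figure D4:**
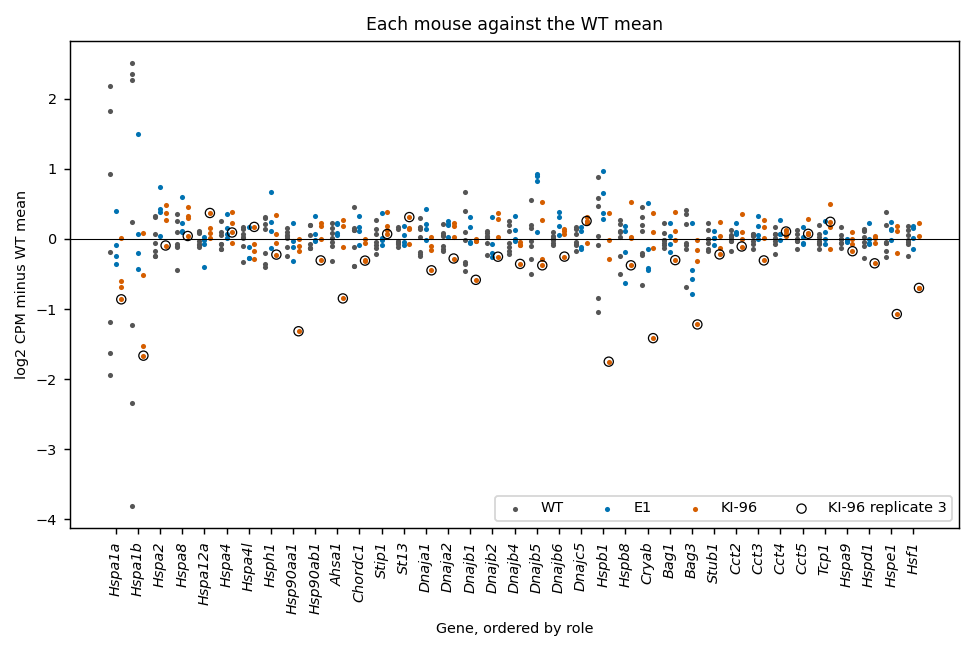
Log2 CPM of each mouse minus the WT mean for each member, ordered by role, with KI-96 replicate 3 ringed. The ringed point is the lowest of all mice for 17 of 37 members, most clearly for Hsp90aa1, Hspb1, Cryab and Hspe1.

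Leaving that mouse out changed no call. Values against WT moved up for most members and down for some, among them Hspa12a (0.16 to 0.08), Hspa4l (-0.09 to -0.19) and St13 (0.14 to 0.08). In KI-96 against WT 25 members were positive (47.9% of all genes), the median was 0.09, and 2 had an unadjusted p under 0.05 (10.9% of all genes): Hspa2 at 0.36 (adjusted p = 0.384) and Hspa8 at 0.34 (adjusted p = 0.433). In KI-96 against E1 18 were positive (49.0% of all genes), the median was -0.02, and 1 had an unadjusted p under 0.05 (10.0% of all genes), Dnajb2 at 0.27 (adjusted p = 0.494). The largest moves in KI-96 against WT were those of Hspb1, Cryab, Hsp90aa1 and Hspa1b, the last from -2.08 to -1.86.

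**Figure D5:**
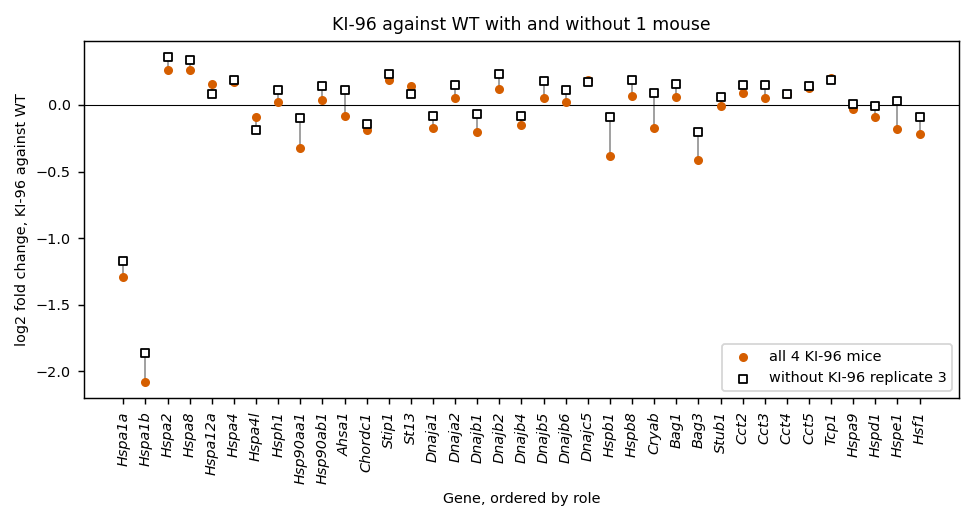
Log2 fold change of each member in KI-96 against WT with all 4 KI-96 mice (filled) and without replicate 3 (open squares), ordered by role. The values of Hspb1, Cryab, Hsp90aa1 and Hspe1 move toward or past 0, while Hspa1a and Hspa1b stay the lowest.

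The other genes of the chaperone network gave 0 genes past the threshold by edgeR in every list and comparison, and the counts at an unadjusted p under 0.05 were also small. Of 41 other cytosolic chaperones and cochaperones, 27 were positive in E1 against WT (median 0.06), 24 in KI-96 against WT (median 0.03) and 18 in KI-96 against E1 (median -0.01). Over all genes 49.7%, 47.9% and 49.4% were positive in these comparisons, which also holds beside the lists below. The 2 KI-96 medians were 0.07 and 0.02 without KI-96 replicate 3. At an unadjusted p under 0.05, 2, 1 and 3 of the 41 were higher and 1, 0 and 2 lower. The shares of all genes in either direction were 8.75%, 10.5% and 14.3%. The smallest p-values belonged to Ptges3, the HSP90 cochaperone p23 (0.20), and the Cdc37 relative Cdc37l1 (-0.29) in E1 against WT. In KI-96 against WT they belonged to Nudcd3 and to the immunophilin Fkbp4, both at 0.23, and in KI-96 against E1 to the cyclophilin Ppid (-0.30) and to Dnajc9 (-0.33).

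Of 16 other TRiC and prefoldin subunits and tubulin cofactors, 12, 11 and 4 were positive in the 3 comparisons in the same order, with medians of 0.12, 0.04 and -0.10. Without KI-96 replicate 3 the last 2 medians were 0.11 and 0.03. The tubulin cofactor Tbcc (0.36) and the prefoldin subunit Pfdn1 (0.25) led E1 against WT. The prefoldin subunits Pfdn2 (0.43, adjusted p = 0.324) and Vbp1 (-0.24) led KI-96 against WT, and Tbcd (0.25) and Vbp1 (-0.28) led KI-96 against E1. Of 21 other mitochondrial chaperones and proteases, 15, 10 and 10 were positive, with medians of 0.05, -0.02 and -0.01. The last 2 were 0.06 and -0.02 without that mouse. The matrix protease Lonp1 was at 0.20 against WT in both E1 and KI-96, which share their controls. The protease Spg7 was at -0.16 in E1, and the disaggregase Clpb at 0.21 in KI-96 against WT and 0.19 against E1, where Dnajc15 was at 0.22.

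Of 9 other heat shock factors and regulators, 5, 3 and 1 were positive, with medians of 0.01, -0.10 and -0.08. Without KI-96 replicate 3 the last 2 medians were 0.01 and -0.07. Hsbp1, which binds and restrains Hsf1, was at 0.28 in E1 against WT and -0.34 in KI-96 against E1, and Fem1a was at 0.30 in KI-96 against WT and 0.28 against E1. Of 14 chaperones of the endoplasmic reticulum, 12, 9 and 2 were positive, with medians of 0.22, 0.06 and -0.15. The last 2 were 0.13 and -0.06 without that mouse. Pdia6 (0.41) and calreticulin, Calr (0.34), led E1 against WT. Hyou1, the HSP110 of the endoplasmic reticulum, was at 0.42 (adjusted p = 0.365) in KI-96 against WT, where Dnajb9 was at -0.21. Creld2 (-0.43) and Dnajb9 (-0.20) led KI-96 against E1.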

How the data were processed

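Striatal RNA from 7 WT, 4 E1 and 4 KI-96 mice was analysed from the whole-number read counts per gene that the authors deposited, without normalization. The submitters' processing notes name STAR, HTSeq, DESeq2 1.24.0 and GRCm38, with no roles; the sources used here do not state strandedness, so overlapping opposite-strand genes (Hspd1 and Hspe1, Cryab and Hspb2) and near-identical copies are uncertain. Identifiers were matched without version to a GRCm38 annotation (54165 of 54232).

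Genes were filtered with edgeR 4.0.16 (minimum count of 10), scaled by the trimmed mean of M-values and fitted with a robust quasi-likelihood model over all 15 libraries, with 3 two-sided contrasts adjusted by Benjamini-Hochberg over 18278 genes (threshold 0.05), in R 4.3.3. Standard errors were computed from the F statistic. Log2 CPM used a prior count of 2. Pairs of genes (6) were compared by 100000 permutations of libraries within genotypes. Their p-values were adjusted over all 6. DESeq2 1.42.0 and limma-voom 3.58.1 were alternatives, beside other normalization, filter, covariate, left-out libraries and replicate block. The scripts were tested on simulated data.

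Named in full were, per comparison, the 3 members with the smallest p in each direction, the inducible members and Hspa8, the extremes per length, and the 4 largest moves over 0.2 without KI-96 replicate 3. From each other list the 2 smallest p-values were taken. Some results of these rules are not reported here. The members and lists were chosen with earlier results of these data known.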

Additional observations from a re-analysis of the deposited data

Results flagged for a closer look

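Of 111 sets of 1 gene in 1 genotype, 5 had a mouse whose gap to the nearest other was large for the group's range by Dixon's criterion, where chance alone marks about 5% of sets. Hspa1b was 18.5 CPM in E1 replicate 3, against 4.78 to 6.8 CPM in the other E1 mice. Dnajb5 was 125 CPM in E1 replicate 4, against 206 to 220 CPM. Dnajb1 was 39.6 CPM in KI-96 replicate 3, against 58.1 to 59.1 CPM, and Dnajb4 was 70.5 CPM in that mouse, against 84.7 to 87.4 CPM. Cct5 was 134 CPM in KI-96 replicate 1, against 114 to 116 CPM.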

How the results depend on the processing

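Correlations of gene pairs were recomputed only with another normalization, with a prior count of 0.5 and without KI-96 replicate 3. Fold changes, their medians and the calls were recomputed under 25 alternatives, 15 of which left out 1 library. The number of members past the threshold stayed at 0 in all of them but 1: leaving out single libraries gave 0 to 1 in E1 against WT, the 1 being Dnajb5 without E1 replicate 4 (adjusted p = 0.0477). The median log2 fold change of the members ranged from -0.03 to 0.11 in E1 against WT, from -0.09 to 0.09 in KI-96 against WT and from -0.15 to -0.02 in KI-96 against E1. Of 850 alternative values of 34 named fold changes, 823 kept their direction and 27 turned, in 6 genes. The causes were not tested.

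In E1 against WT, Hspa1b turned to 0.19 with limma-voom and to 0.21 with Y-linked reads as a covariate, where Hspa1a turned to 0.16 and Hspa8 to -0.09. Without the libraries with high cortical markers Dnajb1 was -0.17 and Hsph1 -0.02, and leaving out single libraries moved Dnajb1 between -0.03 and 0.18. In KI-96 against WT, Hspa8 was -0.08 and Hsph1 -0.16 with the Y-linked covariate, and Hsph1 was -0.04 without the high cortical libraries. Leaving out single libraries moved Hsph1 between -0.09 and 0.11 and Cryab between -0.39 and 0.09. In KI-96 against E1, Hspa8 was 0 with no filter on low counts and between -0.05 and 0.13 without single libraries.

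The replicate numbers do not pair the mice in the labels, and same-numbered mice deviated together with correlations of only -0.10 to 0.19. A fit with the replicate number as a block called 0 members in each comparison, with all-gene calls going from 1 to 4, from 0 to 6 and staying at 0. The block turned Hspa1a to 0.31 and Hspa1b to 0.38 in E1 against WT, and Dnajb1 to 0 in KI-96 against WT. In E1 against WT 2 of 4 mice correlated best with their own number, in KI-96 against WT 1 of 4 and in KI-96 against E1 2 of 4. Depth limits Hspa1a, Hspa1b and Hspb1, which had as few as 25, 7 and 25 reads in a library.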
